A study of Amaranthus hybridus and Amaranthus hypochondriacus with 18 samples.

Results

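A transcript annotated as a constans-like zinc finger protein and one annotated as a homeodomain-like superfamily protein showed opposite patterns in leaves of A. hypochondriacus under stress. They are the zinc finger protein constans-like 14-like transcript (AhypoNutrisol_DN12594_c0_g1_i1) and a homeodomain-like superfamily protein transcript (AhypoNutrisol_DN7488_c0_g2_i1). These 2 of the 30946 transcripts in the count table were chosen because constans-like 14 was near zero in control plants and the homeodomain-like transcript was nearly lost under stress. Both passed the filter on low counts, which kept 12429 transcripts for testing. The choice used the levels under both stresses and in controls, so these levels are given as a description, without a test.

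Leaf RNA of A. hypochondriacus cv. Nutrisol, a cultivated amaranth, and of the wild A. hybridus was sequenced in 18 libraries, 3 per group, as single-end reads of 75 bases. Salt plants were given 100 ml of NaCl solution daily, at 0.15 mol/l over the initial 7 days. They then had 100 ml at 0.3 mol/l during 4 days and finally 100 ml at 0.5 mol/l during 3 days. Water-deficit plants had no irrigation for 14 days. Control plants were watered throughout, and all plants were wild type. Each library pooled leaves of 3 plants, so differences between single plants are not seen, and the time of day of harvest is not given in the sources used here.

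Constans-like proteins belong to the B-box family of plant transcription factors, named after a zinc-binding domain near their start, and many also carry a CCT domain that they share with clock proteins. The founding member, CONSTANS of Arabidopsis, measures day length in leaf veins and switches on flowering. Others of the family act in light signalling, pigment formation and stress responses. The homeodomain-like fold is a helix-turn-helix that binds DNA, and it occurs in homeobox proteins as well as in MYB-like proteins, so the name alone does not tell which of these the transcript encodes. Names come from the best protein match that the study recorded for each transcript and were not checked against sequence here.

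Constans-like 14 was present under both stresses and nearly silent in control leaves. It had 75, 164 and 73 counts in the salt libraries 1 to 3, 26, 15 and 64 counts in the water-deficit libraries, and 1 count in each control library. After TMM scaling, which corrects library totals for a few transcripts that take most reads, these counts came to 3.43, 4.44 and 3.94 CPM (counts per M, or mega, scaled counts) under salt, 2.06, 2.04 and 2.80 CPM under water deficit, and 0.0842, 0.0715 and 0.0831 CPM in controls. Every stressed library was far above every control library, and the water-deficit libraries lay below the salt libraries. Group means were 3.94 ± 0.505 CPM under salt, 2.30 ± 0.433 CPM under water deficit and 0.0796 ± 0.00703 CPM in controls (SD, n = 3 each). Because each control library held 1 count, the control spread reflects only the scaling of that count. The salt libraries together held 312 counts and the controls 3, a ratio of 51.0 after scaling, with a 95% counting interval of 17.3 to 248.4. For water deficit, 105 counts against the same 3 gave a ratio of 31.0 with an interval of 10.3 to 152.7. Both intervals are exact, cover counting error only, and are wide because of the 3 control counts.

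The homeodomain-like transcript was low under both stresses and well expressed in control leaves. It had 21, 32 and 20 counts in the salt libraries, 14, 7 and 28 counts in the water-deficit libraries, and 408, 530 and 505 counts in the control libraries. On the CPM scale these were 0.960, 0.866 and 1.08 under salt, 1.11, 0.951 and 1.23 under water deficit, and 34.3, 37.9 and 42.0 in controls. The salt and water-deficit libraries overlapped, and none of them came near a control library. Group means were 0.969 ± 0.108 CPM under salt, 1.10 ± 0.138 CPM under water deficit and 38.1 ± 3.81 CPM in controls (SD, n = 3 each). The ratio of scaled counts was 0.0248 for salt against control, with a counting interval of 0.0193 to 0.0314, which is a level 40.3 times lower under salt. For water deficit against control it was 0.0301, with an interval of 0.0221 to 0.0400, or a level 33.3 times lower under water deficit. In these bulk samples, fewer cells of a type and less RNA per cell cannot be told apart.

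**Figure D1:**
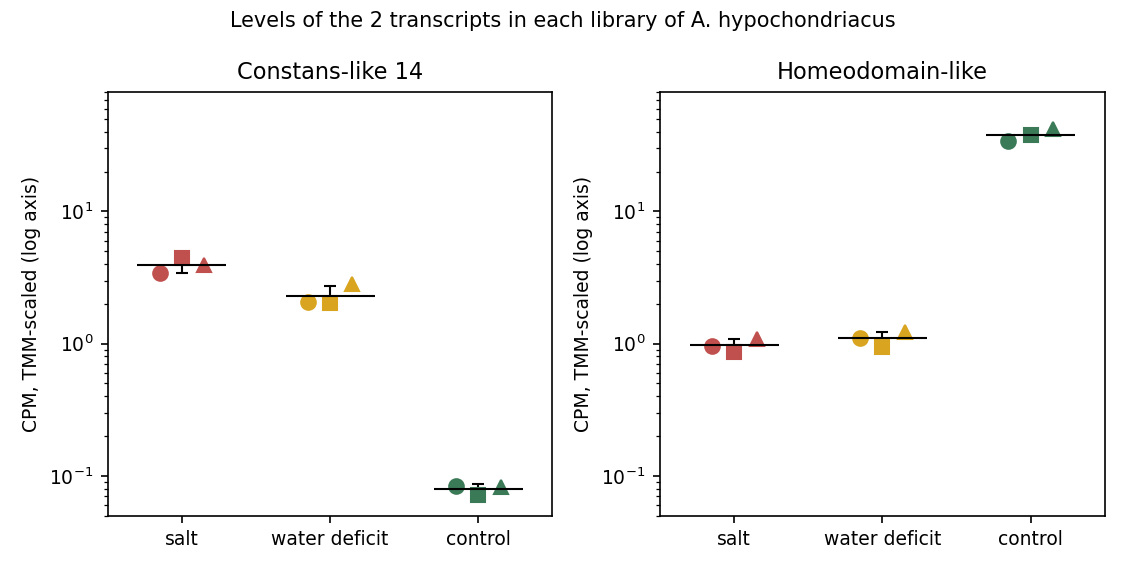
CPM after TMM scaling (log axis) of constans-like 14 (left) and of the homeodomain-like transcript (right) in each A. hypochondriacus library, with circles, squares and triangles for libraries 1, 2 and 3, horizontal lines for group means and bars for the SD (n = 3). Constans-like 14 sits between 2.04 and 4.44 CPM in the stressed libraries and at or below 0.0842 CPM in controls, while the homeodomain-like transcript sits between 0.866 and 1.23 CPM under stress and between 34.3 and 42.0 CPM in controls.

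Both transcripts were chosen for their levels under stress and in controls, so their place among all transcripts is given as a description only. By fitted log2FC, constans-like 14 ranked 13 among the 12429 tested transcripts for higher levels under salt and 12 for higher levels under water deficit. The homeodomain-like transcript ranked 15 for lower levels under salt and 17 for lower levels under water deficit. Both stresses were compared with the same 3 control libraries. All libraries of a group lay above all controls for 18.4% of tested transcripts under salt and 14% under water deficit, and below all controls for 20.6% and 18.1%.

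The balance between both transcripts within a library does not depend on how libraries are scaled. Constans-like 14 counts divided by homeodomain-like counts gave 3.57, 5.13 and 3.65 in the salt libraries, 1.86, 2.14 and 2.29 in the water-deficit libraries, and 0.00245, 0.00189 and 0.00198 in the control libraries. Constans-like 14 thus collected more reads than the homeodomain-like transcript in every stressed library. In controls the homeodomain-like transcript collected 408, 530 and 505 reads, against 1 read of constans-like 14 in each library. Both transcripts were chosen for these levels, so the gap between stressed and control ratios follows from the choice and is only described. Transcript lengths are not used here, so these are ratios of reads and not of molecules. The water-deficit ratios were all below the salt ratios, with a mean log2 ratio of 1.06 under water deficit and 2.02 under salt, a difference of -0.96. An exact two-sided permutation test of this difference gave p = 0.1. That is the smallest p-value possible with 3 libraries per group, so the test cannot decide.

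**Figure D2:**
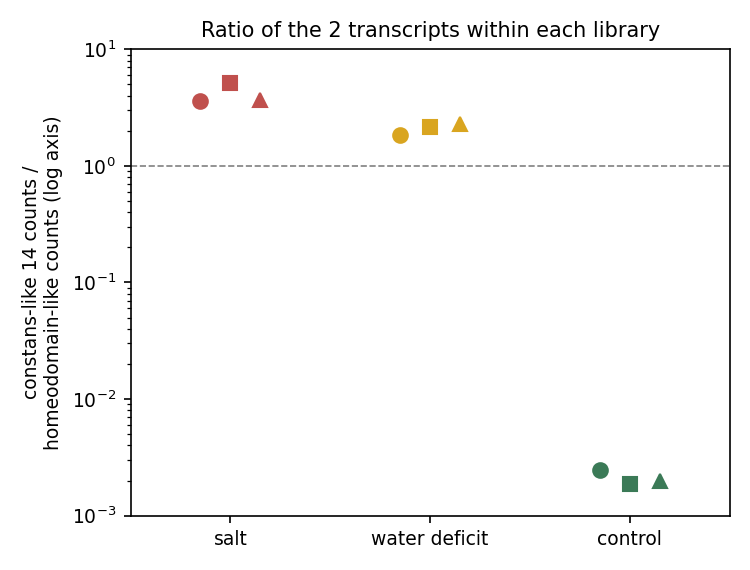
Constans-like 14 counts divided by homeodomain-like counts (log axis) within each A. hypochondriacus library, with circles, squares and triangles for libraries 1, 2 and 3 and a dashed line at equal counts. All 6 stressed libraries lie above the line, at 1.86 to 5.13, and the 3 control libraries lie between 0.00189 and 0.00245. The choice of both transcripts used these levels.

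The comparison of water deficit with salt is the contrast that the choice did not name, although the salt and water-deficit libraries both entered the choice. A transcript was called where the quasi-likelihood test of edgeR gave an adjusted p-value (FDR) below 0.01 and an absolute log2FC above 1, and 4.1% of tested transcripts were called here. Neither transcript was called. Constans-like 14 was at 2.30 ± 0.433 CPM under water deficit and 3.94 ± 0.505 CPM under salt, with a log2FC of -0.73 (SE 0.19, 95% interval -1.14 to -0.32) and an edgeR FDR of 0.0205. The 3 water-deficit libraries lay below the 3 salt libraries after TMM scaling, as they did for 15.6% of tested transcripts. With library totals as the only scaling the groups overlapped, with 1.91, 1.37 and 4.02 CPM under water deficit and 3.97, 7.99 and 4.24 CPM under salt. The homeodomain-like transcript was at 1.10 ± 0.138 CPM under water deficit and 0.969 ± 0.108 CPM under salt. Its log2FC of 0.24 (SE 0.25) had an interval of -0.28 to 0.76 and an edgeR FDR of 0.585, which on the linear scale is a fold of 0.821 to 1.69.

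The biological coefficient of variation that edgeR estimated was 12.5% for constans-like 14 and 16.7% for the homeodomain-like transcript, against 19.1% for the common value over all tested transcripts. Each was the only transcript of its Trinity component in the table, so no isoform or split fragment of the same component is listed beside it. Reads that mapped to more than one place were not counted, so reads shared with near-identical copies elsewhere in the assembly are missing from these counts. Over the 9 libraries the log2 CPM of both had a Pearson r of -0.99 and a Spearman rho of -0.78, which describes libraries that fall into 3 groups and carries no test.

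Other B-box transcripts did not move as one group with constans-like 14. The study's list of transcripts that respond to salt names 12 B-box transcripts. It was made from these same salt and control libraries, and holds only a share of the lower ones in the copy used here. Its directions under salt are therefore not independent evidence. Water deficit is compared with the same control libraries, so the directions there are not free of this choice either. Of the 11 other than constans-like 14, 8 were tested. Under salt, 5 were called higher and 3 lower than in controls, where 10.1% of all tested transcripts were called, 3.53% higher and 6.61% lower. Under water deficit 4 were called higher and 3 lower, where 9.7% of all were called, 2.75% higher and 6.95% lower. The median log2FC of the 8 was 2.39 under salt and 2.07 under water deficit, against -0.00 and 0.01 over all tested transcripts. With a transcript that had no control count set to its value at a floor of 3 control counts, the water-deficit median was 1.61.

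The B-box transcripts that were higher under both stresses shared the low control level of constans-like 14 to a varying degree. A transcript matching the Arabidopsis B-box protein At1g68190 (DN214) had 4.75, 6.52 and 4.92 CPM under salt, 2.94, 2.85 and 2.71 CPM under water deficit, and 0.337, 0.0715 and 0.499 CPM in controls. It was called under both stresses, with a log2FC of 4.19 under salt and 3.24 under water deficit, and its 3 groups did not overlap. A constans-like 16-like transcript (DN21251) had 79 counts under salt, 13 under water deficit and 0 in controls. With its control counts set to a floor of 3 over the group, it was 12.9-fold higher under salt and 3.84-fold higher under water deficit. These folds leave out the counting error of the stress counts. A constans-like 9-like transcript (DN2969) averaged 1.71 ± 0.532 CPM under salt, 1.29 ± 0.258 CPM under water deficit and 0.155 ± 0.0659 CPM in controls, and was called under both stresses. Constans-like 9 itself, which delays flowering in Arabidopsis, was present in every library. Its transcript (DN4892) averaged 5.33 ± 0.737 CPM under salt, 4.78 ± 0.290 CPM under water deficit and 1.97 ± 0.205 CPM in controls, with a log2FC of 1.44 and 1.27, both called. The other constans-like 16-like transcript (DN29107) was called under salt only, with 75 counts under salt, 10 under water deficit and 1 in controls. A transcript for a B-box protein with a CCT domain (DN13671) was too low to be tested, with 41 counts under salt, 16 under water deficit and 0 in controls.

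The B-box transcripts that were lower under stress kept a measurable level in most libraries. Constans-like 1 (DN6737), whose Arabidopsis counterpart can shift the pace of the circadian clock, had 1.78, 2.19 and 1.73 CPM under salt, 0.794, 1.49 and 0.700 CPM under water deficit, and 10.3, 7.58 and 8.06 CPM in controls. All stressed libraries were below all controls, and the log2FC was -2.16 under salt and -3.27 under water deficit. A constans-like 5-like transcript (DN5305) fell about equally, with a log2FC of -2.17 under salt and -2.13 under water deficit. B-box protein 32, a repressor of light responses in Arabidopsis seedlings, differed more between the stresses. Its transcript (DN19933) had 0, 0.0812 and 0.0540 CPM under salt, 2.54, 0.136 and 1.49 CPM under water deficit, and 5.64, 4.36 and 3.41 CPM in controls. It was almost absent under salt, whereas of the water-deficit libraries only library 2, the smallest of the 9, with 1 count, came near the salt libraries. The log2FC of DN19933 was -6.25 under salt and -1.53 under water deficit against control. A B-box 32-like transcript (DN9575) and a constans-like 3-like transcript (DN21296) were too low to be tested, with 6 and 15 counts under salt, 6 and 2 under water deficit, and 34 and 39 in controls. Both passed the filter and were called lower under salt without control 1, salt 1, salt 3 or any water-deficit library, which brought the lower B-box transcripts to 5. With library totals as the only scaling, 1 B-box transcript was called lower under salt, and none changed direction among those called.

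Between the stresses, 2 of the 8 other B-box transcripts were called, where 1.75% of all tested transcripts were called higher and 2.36% lower under water deficit than under salt. B-box 32 (DN19933) was higher under water deficit, with 67 counts against 4 under salt and a log2FC of 4.72 (SE 0.71, edgeR FDR 0.000613). The constans-like 16-like transcript DN21251 was lower under water deficit, with a log2FC of -1.72 (SE 0.39, edgeR FDR 0.0099). The median log2FC of the 8 was -0.69, against 0.02 over all tested transcripts. The other B-box transcripts that were called higher under salt were not called between the stresses. Their log2FC was -0.95 for DN214 (edgeR FDR 0.00934, below the limit on the log2FC), -1.93 for DN29107 (FDR 0.0236), -0.43 for DN2969 (FDR 0.361) and -0.17 for DN4892 (FDR 0.572), and that of constans-like 14 was -0.73. The call of DN21251 was lost whichever of the 9 libraries was left out, with an edgeR FDR of 0.0119 to 0.11, and its call under water deficit against control was lost in 6 of 9 such fits, without any of the controls, salt library 2 or water-deficit libraries 1 and 3 (FDR up to 0.0221). The water-deficit call of DN19933 against control was lost in 7 of 9, all but those without water-deficit libraries 1 and 2 (FDR up to 0.055), and with library totals (FDR 0.0904).

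**Figure D3:**
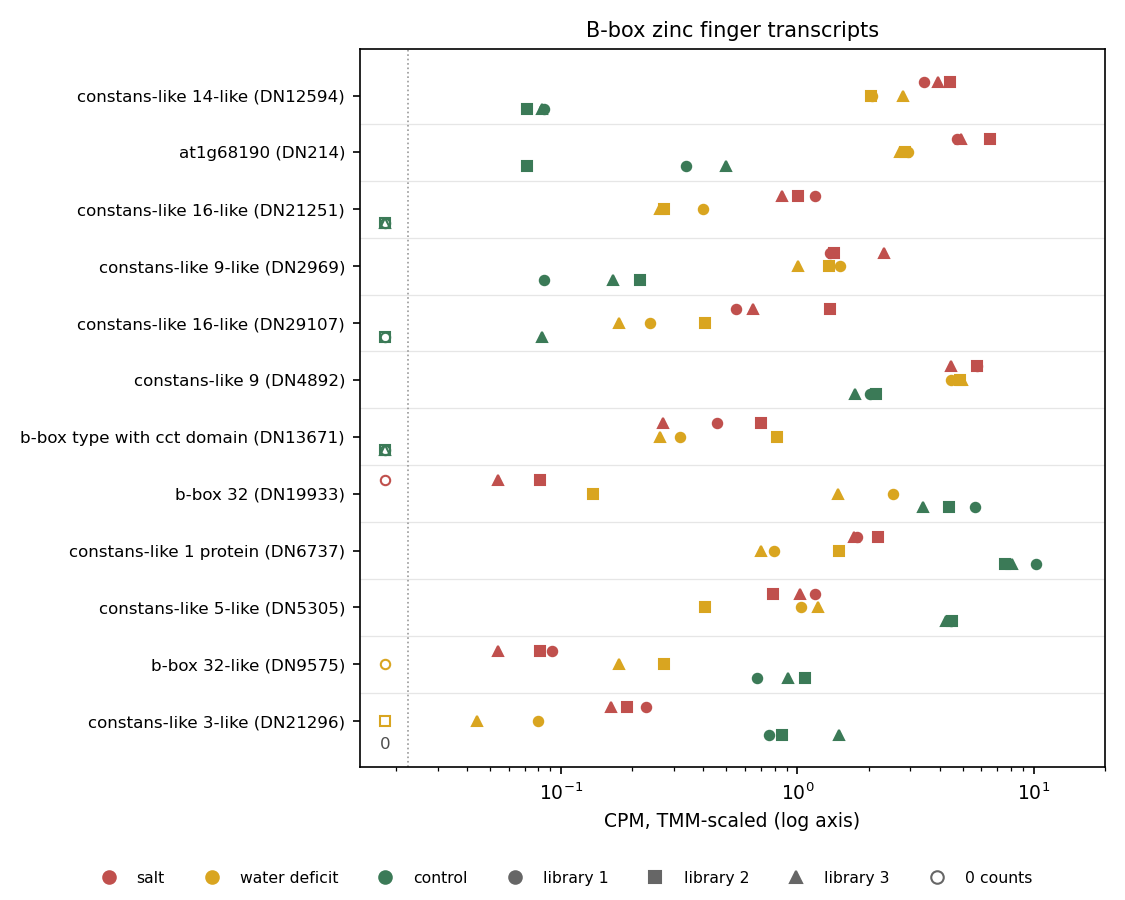
CPM after TMM scaling (log axis) of the 12 B-box transcripts named in the study's salt list, by library of A. hypochondriacus, with colour for the group and marker shape for the library. Open markers left of the dotted line are libraries with 0 counts, and constans-like 14 (top row) shows the clear gap between its stressed and control libraries that DN214 and DN21251 show as well, while DN6737 and DN5305 have the opposite order.

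The same salt list names 9 transcripts described as homeobox, homeodomain-like, telomere repeat-binding or MYB-like, all tested, with the same limit on independence. Reveille 8, whose description does not name its MYB-like domain, is given with the clock transcripts. Of the 8 other than the homeodomain-like transcript, 4 were called higher and 3 lower under salt, where 3.53% of all tested transcripts were called higher and 6.61% lower. Under water deficit 1 was called higher and 3 lower, where 2.75% of all were called higher and 6.95% lower. With library totals as the only scaling, 2 of the 9 were called lower under salt and 3 under water deficit. The median log2FC of the 8 was 1.09 under salt and 0.13 under water deficit, against -0.00 and 0.01 over all tested transcripts. The fitted log2FC of the homeodomain-like transcript, the value it was chosen by, was -5.30 under salt and -5.07 under water deficit, and those of the 8 ranged from -2.62 to 1.64 under salt and from -2.49 to 1.09 under water deficit. Reveille 8 was at -3.50 and -3.68. Between water deficit and salt, 1 of the 8 was called, lower under water deficit, where 2.36% of all were called lower and 1.75% higher.

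A second transcript with the same homeodomain-like description (DN3541) was also lower under stress, but by much less. It had 1.87, 2.22 and 1.73 CPM under salt, 2.54, 1.77 and 2.28 CPM under water deficit, and 5.89, 5.00 and 5.48 CPM in controls. Its stressed libraries all lay below the controls, with a log2FC of -1.47 under salt and -1.28 under water deficit, both called. Both calls of DN3541 were lost with library totals as the only scaling, at -0.67 (edgeR FDR 0.218) and -0.89 (FDR 0.204). Divaricata-like (DN2829), related to a MYB protein that shapes flower asymmetry in snapdragon, averaged 3.09 ± 0.420 CPM under salt, 2.74 ± 0.923 CPM under water deficit and 12.5 ± 1.83 CPM in controls. It was called lower under both stresses, as was the MYB-related transcript myb1r1 (DN20453), with 0.407 ± 0.0276 CPM under salt, 0.521 ± 0.256 CPM under water deficit and 2.57 ± 0.856 CPM in controls.

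Of the 3 homeobox transcripts of the list, 2 were called higher under salt and 1 of these also under water deficit. An ATHB-6-like transcript (DN7553_c0_g2), related to a homeobox-leucine zipper protein of Arabidopsis that responds to the drought hormone abscisic acid, had 2.70, 2.73 and 2.54 CPM under salt, 1.83, 2.17 and 1.44 CPM under water deficit, and 1.35, 0.572 and 0.665 CPM in controls. It was called higher under salt, with a log2FC of 1.64, and not under water deficit, where the log2FC of 1.02 had an edgeR FDR of 0.031. The difference between the stresses, -0.63, was not called either. A second ATHB-6-like transcript of the same Trinity component (DN7553_c1_g1) was called in no comparison, with 0.917 ± 0.163 CPM under salt, 0.414 ± 0.0211 CPM under water deficit and 0.313 ± 0.211 CPM in controls. A homeobox HD1-like transcript (DN1721) was called higher under salt (log2FC 1.44) and under water deficit (log2FC 1.09). A telomere repeat-binding protein 5 transcript (DN8063), whose DNA-binding domain is MYB-like, and a MYB domain transcript (DN3147) were called higher under salt only. DN3147 was at 2.23 ± 0.831 CPM under water deficit and 4.86 ± 0.533 CPM under salt, a log2FC of -1.26 (SE 0.23, edgeR FDR 0.00214).

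Some of these calls depended on single libraries or on settings. The water-deficit call of DN1721 was lost without control 1, control 3, salt 1 or water deficit 3, with an edgeR FDR of up to 0.0488. It was also lost with DESeq2 (adjusted p = 0.0124), and in edgeR with library totals (FDR 0.0317) or no filter on low counts (FDR 0.0136). DN3147 lost its salt call without control 2, control 3 or salt 2 (FDR up to 0.0145) and its call between the stresses without salt 2, water deficit 1 or water deficit 3 (FDR up to 0.0393). The log2FC of DN8063 under salt fell below the limit, to 0.94, without control 3.

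The salt list also names 9 transcripts of the circadian clock and of light signalling, which act upstream of CONSTANS in Arabidopsis, and it chose them on these libraries as above. Under salt 8 were called lower and 1 higher, where 6.61% of all tested transcripts were called lower and 3.53% higher. Under water deficit 7 were called lower and none higher, where 6.95% of all were called lower and 2.75% higher. With library totals as the only scaling, 4 were called lower under each stress. The median log2FC was -2.31 under salt and -1.77 under water deficit, against -0.00 and 0.01 over all tested transcripts. Summed over the 9 transcripts, the level was 18.5 to 19.8 CPM in the salt libraries, 22.3 to 29.0 CPM in the water-deficit libraries and 77.6 to 88.2 CPM in the control libraries.

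The exception was APRR1 (DN7862), known in Arabidopsis as TOC1, an evening repressor of the clock, and it was also among the transcripts closest to constans-like 14. It had 8.91, 9.85 and 9.07 CPM under salt, 8.42, 7.34 and 7.83 CPM under water deficit, and 4.55, 4.15 and 4.74 CPM in controls. Its salt log2FC was 1.05, which was called, and its water-deficit log2FC was 0.82, with an edgeR FDR of 0.00244, below the limit on the log2FC. The related daytime repressors APRR5 (DN7733_c0_g1) and APRR9 (DN7733_c0_g2) ran the other way. APRR5 had 1.28, 1.03 and 1.40 CPM under salt, 6.03, 2.85 and 4.03 CPM under water deficit, and 22.4, 22.8 and 20.3 CPM in controls. The 3 groups of APRR5 did not overlap, and its log2FC was -4.16 under salt, -2.31 under water deficit and 1.84 between water deficit and salt (edgeR FDR 0.000325). APRR9 averaged 1.17 ± 0.121 CPM under salt, 2.28 ± 1.05 CPM under water deficit and 20.9 ± 2.19 CPM in controls. Both come from the same Trinity component, so reads they share were not counted.

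Reveille 8 (DN5511), a MYB-like activator of evening genes whose fold is of the homeodomain-like kind, averaged 0.245 ± 0.125 CPM under salt, 0.255 ± 0.0728 CPM under water deficit and 3.11 ± 0.113 CPM in controls, and was called lower under both stresses. COP1 is the ubiquitin ligase that removes CONSTANS and other light-signalling factors in the dark. The list holds 4 transcripts named COP1 (DN1890) or COP1-like (DN7651, DN6977 and DN21707). Whether any of these come from the same gene was not checked. The most abundant of them (DN7651) averaged 2.83 ± 0.133 CPM under salt, 2.96 ± 0.501 CPM under water deficit and 15.8 ± 1.97 CPM in controls. The other three (DN6977, DN21707 and DN1890) were called lower under salt, with a log2FC between -2.31 and -1.80, and DN21707 and DN1890 also under water deficit. A phytochrome interacting factor (DN6331), of a family that restrains light responses, averaged 2.76 ± 0.114 CPM under salt, 4.84 ± 1.22 CPM under water deficit and 10.2 ± 0.928 CPM in controls, and was called lower under both. The water-deficit calls of DN21707 and DN1890 were each lost without control 2 or water deficit 1, that of DN21707 also without water deficit 3 and that of DN1890 also without control 3 (edgeR FDR up to 0.0282 and 0.0203). The call of DN6331 was lost without water deficit 3 (log2FC -0.88, FDR 0.0103).

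**Figure D4:**
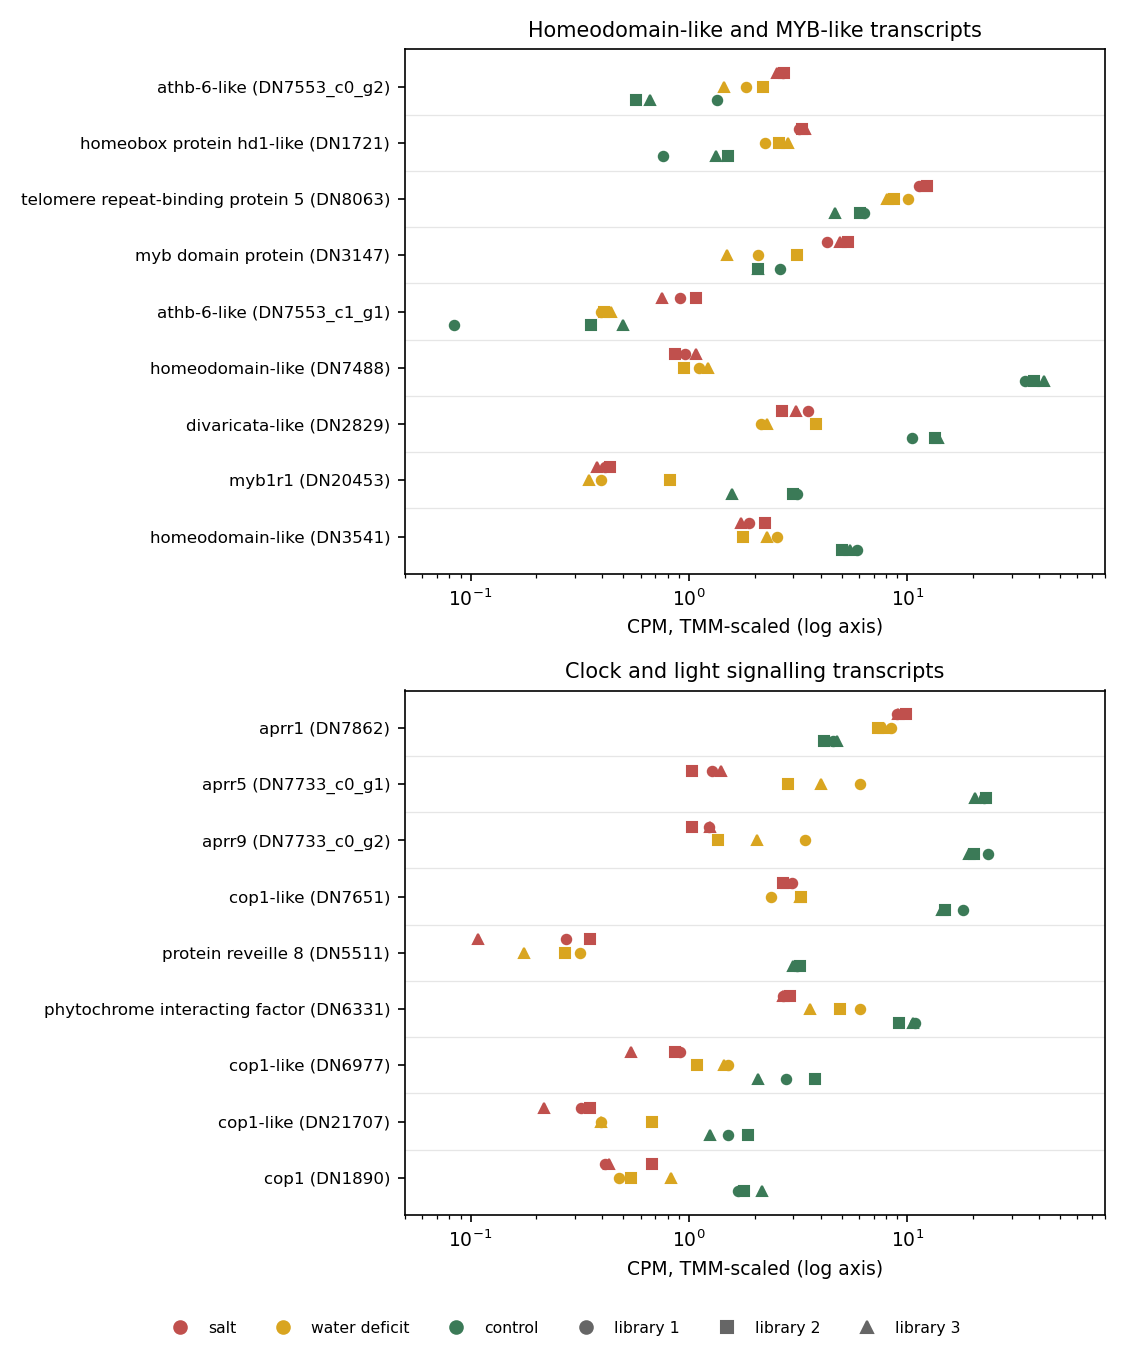
CPM after TMM scaling (log axis) of the 9 homeodomain-like and MYB-like transcripts (top) and the 9 clock and light signalling transcripts (bottom) named in the study's salt list, by library of A. hypochondriacus, with colour for the group and marker shape for the library. In the upper panel the homeodomain-like transcript DN7488 sits at 0.866 to 1.23 CPM in stressed libraries and 34.3 to 42.0 CPM in controls, and in the lower panel APRR1 (top row) alone lies higher under both stresses than in controls.

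Among transcripts above a floor on the average level, the 5 with the pattern most like constans-like 14 were moderately expressed in controls. Likeness was the Pearson r of log2 CPM over the 9 libraries, among 4784 transcripts with an average of at least 1 on the log2 CPM scale. It carries no test because all points share these libraries and their 3 groups. The floor leaves out low transcripts, including ones near zero in controls, so the higher control levels of these 5 partly follow from it. A TCP4-like transcript (DN4161), of a family that controls leaf growth, had the highest r, 0.99, with 5.62 ± 0.399 CPM under salt, 5.00 ± 0.672 CPM under water deficit and 2.47 ± 0.0872 CPM in controls. An auxin-repressed transcript (DN8382) followed, at 54.6 ± 1.89 CPM under salt, 41.9 ± 1.04 CPM under water deficit and 17.0 ± 2.19 CPM in controls. An uncharacterized transcript (DN7981), APRR1 (DN7862) and a bifunctional nuclease 2 transcript (DN7530), all with an r of 0.99, completed the 5. Of the transcripts compared, 107 (2.24%) had an r above 0.9 with constans-like 14.

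For the homeodomain-like transcript, 301 of the transcripts compared (6.29%) had an r above 0.9. The closest was a carotenoid cleavage dioxygenase transcript (DN4405), of an enzyme family that cuts carotenoid pigments, with 4.71 ± 0.488 CPM under salt, 4.54 ± 0.627 CPM under water deficit and 80.3 ± 5.99 CPM in controls. A proton-dependent oligopeptide transporter transcript (DN23783), of a family that carries nitrate and peptides, had 0.891 ± 0.139 CPM under salt, 0.849 ± 0.269 CPM under water deficit and 18.1 ± 2.47 CPM in controls. The rest were a permease (DN5807), an uncharacterized transcript (DN7785) and a hydroxyproline-rich glycoprotein transcript (DN6728), with a control level of 5.57, 15.7 and 8.99 CPM. The r of these 5 was between 0.992 and 0.995.

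Leaf marker levels differed between the groups. Counts outside the 20 most abundant transcripts and summed viral RNA were higher in all salt libraries than in all controls. Both overlapped between water-deficit and control libraries. Total counts overlapped with those of controls under both stresses. A. hypochondriacus libraries held 10.9 to 20.5 M (mega) counts, but only 0.320 M (water deficit 2) to 1.50 M (salt 2) lay outside the 20 most abundant transcripts, and 1 count was worth 0.0271 to 0.136 CPM. These smaller totals were 0.792 to 1.50 M in salt libraries, 0.320 to 0.932 M in water-deficit libraries and 0.603 to 0.753 M in controls. The salt list names 17 leaf markers, transcripts for chlorophyll-binding proteins and the Rubisco small chain. All 17 were called lower under both stresses (6.61% and 6.95% of all tested transcripts). The list was made from these same salt and control libraries, so these directions are not independent evidence. The summed level of the 17 was 136 to 187 CPM in salt libraries, 78.4 to 84.3 CPM in water-deficit libraries and 564 to 811 CPM in controls. They were above 0 in every library except 1 marker in water deficit 2. With library totals as the only scaling, 8 of the 17 were called lower under salt and 17 under water deficit. The 5 virus-annotated transcripts summed to 90.6, 138 and 361 CPM in salt libraries, 66.7, 150 and 42.8 CPM in water-deficit libraries and 58.0, 79.1 and 54.6 CPM in controls. Of these 5, 3 were tested and none was called in the 3 comparisons, but 3 were called higher under salt with library totals, with no filter on low counts or without water deficit 2, and 2 without control 2, salt 1, water deficit 1 or water deficit 3. With a replicate block or the exact test on 6 libraries 1 was called higher under salt. The 2 untested ones (DN2163 and DN4611) had 1050 and 702 counts over the salt group and 0 in all other libraries. For the group as a whole this is 171- and 115-fold higher than in controls, with the control counts set to a floor of 3 over the group. The salt libraries did not share this level. They ranged from 0.0457 to 34.9 CPM for DN2163 and from 0 to 21.6 CPM for DN4611. The part of depth, leaf content or viral RNA in the levels of both transcripts was not tested.

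A. hybridus has its own assembly. The paper matched orthologs between the species with OrthoFinder, but those matches were not used here. No transcript is therefore named as the counterpart of either one, and levels are not set against those of A. hypochondriacus. A constans-like 1 transcript (Ahybridus_DN7210_c0_g1_i1) had 8.00, 10.2 and 6.42 CPM under salt, 0.568, 0.264 and 0.894 CPM under water deficit, and 8.31, 7.05 and 11.2 CPM in controls. Its salt libraries overlapped the controls, and its water-deficit libraries lay well below both. A transcript for BEL1-like homeodomain protein 1 (Ahybridus_DN2214_c0_g1_i1), a homeobox protein, had 1.00, 2.07 and 1.28 CPM under salt, 2.48, 2.51 and 1.71 CPM under water deficit, and 1.00, 0.830 and 1.82 CPM in controls. Both are named because the study's lists for this species describe them so, and they are given as values without a test. Their CPM depend strongly on scaling. The TMM factors of controls 1 to 3 were 0.349, 0.825 and 4.95, and the constans-like 1 transcript had 83, 136 and 987 counts there. The factors were 0.634, 1.09 and 1.51 for the salt libraries and 1.04, 0.805 and 0.803 for the water-deficit libraries.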

How the data were processed

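Leaf RNA was sequenced in 18 libraries of 2 species, with 3 libraries per group. The authors ran Trimmomatic for trimming and Trinity for one assembly per species, removed redundant transcripts with CD-HIT (90% identity), aligned reads with Bowtie2 2.3.0 and counted those with a single alignment. They deposited raw counts per transcript, without normalization, and these counts are used here. Transcript names come from the study's annotation.

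For A. hypochondriacus, edgeR 4.0.16 in R 4.3.3 was used (filterByExpr, TMM, glmQLFit and glmQLFTest) in a single fit of 9 libraries and 3 groups, with Benjamini-Hochberg adjustment over 12429 transcripts. On simulated counts for salt against control, with 11525 transcripts tested, 110 of 113 changes of log2FC 2 and 87 of 87 of log2FC 3 were called, with 4 false calls. Changes were only of log2FC 2 or 3 in size, and were put only into transcripts with a mean above 2 CPM. The recovery therefore does not cover changes between the log2FC limit of 1 and 2. It also does not cover lower transcripts, such as DN21251 and DN29107. CPM use TMM-scaled totals, and log2 CPM a prior count of 2. Both transcripts, the lists and the tests were chosen with earlier results of these data known. Named transcripts are both members, the B-box, homeodomain-like and clock lists, and the 5 most similar to each member. Alternatives included DESeq2 1.42.0, other scalings, filters and limits, and each library left out. Replicates are pools of 3 plants. Figures were drawn with matplotlib 3.10.9.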

Additional observations from a re-analysis of the deposited data

How the results depend on the processing

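Over the 20 alternatives run for each, constans-like 14 stayed lower under water deficit than under salt, with a log2FC of -1.13 (library totals) to -0.63 and an FDR of 0.0149 to 0.115, and was never called. The homeodomain-like log2FC between the stresses was 0.13 to 0.30 with 1 library left out (FDR 0.488 to 0.864) and turned to -0.13 (FDR 0.92) with library totals as the only scaling, a choice that shifts the median log2FC over the whole tested set by 0.77 under salt, 0.38 under water deficit and -0.38 between the stresses. With that scaling the log2 ratio of constans-like 14 was 6.48 under salt and 5.39 under water deficit (5.67 and 4.95 with TMM), and that of the homeodomain-like transcript was -4.53 and -4.62 (-5.33 and -5.06 with TMM). With 1 library left out these ratios ranged over 5.53 to 5.74, 4.70 to 5.06, -5.42 to -5.23 and -5.17 to -4.98, in that order.

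Library totals gave 1282 calls under salt, 15.9% of them lower (1261 and 65.2% with TMM), 645 under water deficit, 48.5% lower (1206 and 71.6%), and 322 between the stresses, 80.4% lower (510 and 57.5%). A limit of 2 on the absolute log2FC gave 438, 454 and 128 calls, and an FDR limit of 0.05 gave 893 between the stresses. With 1 library left out the counts ranged over 920 to 1482 under salt, 789 (without water deficit 3) to 1580 under water deficit, and 106 (without water deficit 3) to 982 (without water deficit 2) between the stresses, with 160 without water deficit 1, 260, 210 and 282 without salt 1, 2 and 3. Of 911 refits of the 46 calls of list transcripts, 827 kept the call, 84 lost it (20 at the limit of 2, 16 with library totals, 40 with a library left out) and none turned its direction.

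Replicate numbers showed no pairing of the libraries: same-numbered libraries had deviations with an r of -0.09 to 0.06, and 3 of 9 libraries were closest to one with their own number. The paper describes a randomized complete block design, but the sample labels name no block. With so few libraries per group this check cannot exclude blocks. With the replicate number as a block, constans-like 14 had a log2FC of -0.74 (FDR 0.0291) and the homeodomain-like transcript 0.20 (FDR 0.685) between the stresses, and 1173, 1114 and 416 transcripts were called in the 3 comparisons. The 3 control counts of constans-like 14 limit its ratios more than any choice above.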
